A study of Homo sapiens with 6 samples.

Results

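Collagen chains were examined in cultured C4-2B-ENZR cells. This human line from prostate cancer is resistant to enzalutamide, an antiandrogen drug. RNA sequencing of total RNA covered 3 libraries of cells transfected with an siRNA against RUVBL1 and 3 libraries of cells transfected with a negative-control siRNA. RUVBL1 is an ATPase of chromatin-remodelling and protein-assembly complexes. All 6 libraries came from the same cell line in the same medium with serum, and the labels do not state whether enzalutamide was present, which siRNA sequences were used, how long after transfection the RNA was taken, or whether the replicates were separate cultures. What the p-values measure is thus the spread among these 6 libraries, which could be technical. The 10 genes examined are COL16A1, COL18A1, COL4A1, COL4A2, COL4A5, COL4A6, COL5A2, COL6A1, COL9A2 and COL9A3, out of 44 collagen genes and 57820 genes in each library's table. Collagen genes outside the list, such as COL6A2 and COL1A1, were counted too and are set beside the list where they bear on it. The list was drawn up with the results of this same comparison in view, and COL16A1 was already known to be among the larger rises. The fold changes and edgeR calls of the listed genes are therefore descriptions, given with their errors, and support nothing by themselves.

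Collagens are extracellular matrix proteins built from chains that wind around each other in trimers. Each chain carries long runs in which glycine recurs at every step of the repeat. Type IV collagen forms the network of basement membranes, type VI forms beaded microfibrils around cells, type V is a fibril-forming collagen, and types IX and XVI sit on the surface of fibrils. Type XVIII is a basement membrane collagen that carries heparan sulphate and whose end piece, once cut off, is known as endostatin. Types IV, V, VI and IX are usually assembled from chains of more than 1 gene, while types XVI and XVIII are trimers of a single gene's chain. In prostate glands, basement membrane collagens lie under the epithelium, while fibrillar collagens come mostly from the stroma.

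Of the 10 genes, 7 had an entry in the RefSeq promoter table (build GRCh38.p14). COL4A1 and COL4A2 lie head to head on chromosome 13 and are read in opposite directions from 1 short stretch, which is shown because the counts of the pair differed so widely. The stretch between their RefSeq starts covers 126 bases (chr13:110307158-110307283, plus strand, on which COL4A2 is read). RefSeq lists more than 1 start for COL4A6. COL4A5 and COL4A6 form a second head-to-head pair on the X chromosome, with 379 bases between the nearest starts, and the 250 bases before the COL4A5 start are shown (chrX:108439588-108439837, plus strand). For COL16A1, which had the largest fold change on the list, the 250 bases before its start are shown (chr1:31704018-31704267, minus strand). Capitals mark CCAAT and the GC box GGGCGG on either strand.
COL4A1 and COL4A2, between the starts: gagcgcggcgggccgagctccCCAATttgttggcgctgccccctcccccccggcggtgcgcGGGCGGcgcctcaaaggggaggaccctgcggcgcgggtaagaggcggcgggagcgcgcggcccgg
COL4A5, before the start: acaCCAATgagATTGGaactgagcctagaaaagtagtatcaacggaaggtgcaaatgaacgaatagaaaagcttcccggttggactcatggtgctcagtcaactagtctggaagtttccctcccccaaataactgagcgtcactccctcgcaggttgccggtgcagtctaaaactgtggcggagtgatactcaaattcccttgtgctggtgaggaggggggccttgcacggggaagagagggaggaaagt
COL16A1, before the start: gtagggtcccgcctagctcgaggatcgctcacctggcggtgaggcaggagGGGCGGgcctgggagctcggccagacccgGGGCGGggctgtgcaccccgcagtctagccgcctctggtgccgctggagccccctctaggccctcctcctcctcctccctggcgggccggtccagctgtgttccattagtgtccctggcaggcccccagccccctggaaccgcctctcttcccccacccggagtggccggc
The stretch shared by COL4A1 and COL4A2 held 1 CCAAT and 1 GC box and was 80.2% G and C. These stretches hold the letters of the reference genome, not of the cells. The COL4A5 stretch held 2 CCAAT matches, facing each other, no GC box, and 51.2% G and C. The COL16A1 stretch held 2 GC boxes and no CCAAT, at 73.2% G and C. Neither the TATA box TATAAA nor TGATGNAA, the composite element bound by ATF4 and CHOP, matched any of these stretches on either strand. Among 35116 promoter windows of 300 bases in the RefSeq table, CCAAT matched 34.6%, the GC box 45.0%, TATAAA 11.5% and TGATGNAA 3.62%. These windows run past the start and are longer than the stretches shown, so the shares are not a like-for-like comparison. These matches are descriptions of letters and not of binding.

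The siRNA target served as a check of the labels. RUVBL1 had 2725, 2618 and 2710 normalized counts in the RUVBL1 siRNA libraries, against 4681, 4654 and 4758 in the control siRNA libraries, where a normalized count is the count scaled to a common library size. Library totals were between 18985542 and 25697804 counts after RUVBL1 siRNA and between 24720504 and 36054489 counts after control siRNA. The replicate 1 library of each group stood apart, with 20234 genes above 0 after RUVBL1 siRNA and 20193 after control siRNA, beside between 23225 and 23835 in the other libraries. All 10 luminal prostate markers checked, KRT8 and FOLH1 among them, had means over 50 normalized counts. Their summed normalized counts were between 100018 and 103221 after RUVBL1 siRNA and between 119232 and 121572 after control siRNA, and 7 of the 10 passed an edgeR adjusted p of 0.05 with lower counts, beside 23.1% of all tested genes. Of 14 markers of fibroblasts, endothelium and immune cells, 13 had a row in the tables, COL1A1, COL1A2 and COL3A1 among them, which are themselves collagen genes. COL1A2, DCN, LUM and CD3E were at 0 in all 6 libraries. The highest of the 13 were COL1A1, PDGFRB and VWF, each counted in every library. Their mean normalized counts were 238, 79.1 and 42.3 after RUVBL1 siRNA and 237, 83.3 and 36.5 after control siRNA. The summed normalized counts of the 13 were between 354 and 397 after RUVBL1 siRNA and between 353 and 383 after control siRNA.

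Levels between genes were compared per length, as CPM divided by the length in kb of the longest protein-coding transcript in GENCODE 29. COL6A1 had the highest level on the list, 78.8 ± 0.712 after RUVBL1 siRNA and 90.0 ± 1.09 after control siRNA (SD, n = 3 each). Its level was 52.9% ± 0.236 of the summed level of all 44 collagen genes after RUVBL1 siRNA and 52.0% ± 0.0413 after control siRNA. COL4A5 came next, with a level of 17.9 ± 0.424 after RUVBL1 siRNA and 24.7 ± 0.923 after control siRNA. COL9A3 and COL18A1 followed with levels of 9.59 ± 0.278 and 4.57 ± 0.321 after RUVBL1 siRNA, and the order of these last 2 was not resolved in the control siRNA libraries, where COL9A3 (6.69 ± 0.809) and COL18A1 (7.08 ± 0.289) overlapped. COL9A2, COL16A1, COL4A2, COL4A6 and COL5A2 had mean levels between 0.164 and 1.42 after RUVBL1 siRNA and between 0.231 and 0.996 after control siRNA. Within this group the libraries of COL9A2 and COL16A1 overlapped after RUVBL1 siRNA, and those of COL4A6 and COL16A1 overlapped after control siRNA. With these lengths, COL16A1 stood beside COL9A2 in RUVBL1 siRNA cells and beside COL4A6 in control siRNA cells. The merged exons of each gene are longer: 9269 bases for COL16A1, 19293 for COL4A2 and 4841 for COL9A3. The transcripts used here have 5736, 6494 and 2497 bases. The order of genes and the ratios between them thus depend on the length used, and levels with merged exons were not compared. The summed level of the 10 genes was 116 ± 1.17 after RUVBL1 siRNA and 132 ± 1.51 after control siRNA, which is 87.8% of the control siRNA mean. Most of this sum is COL6A1, itself at 87.6% of its control siRNA mean, while 4 of the 10 genes were called higher and 3 lower. The sum was not computed with library totals as the only scaling. In such bulk RNA, fewer expressing cells and less RNA per cell cannot be told apart.

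**Figure D1:**
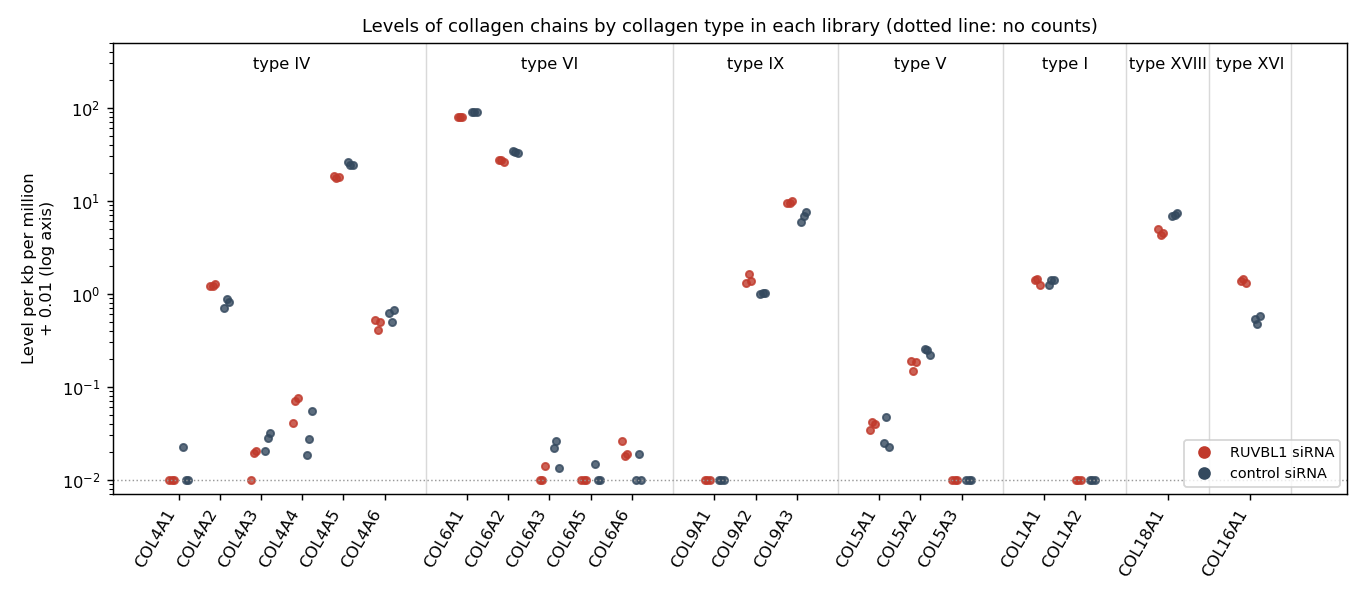
Level (CPM per kb), plus 0.01, of collagen chains in each library on a log axis, grouped by collagen type, with the 3 RUVBL1 siRNA libraries in red to the left of the 3 control siRNA libraries in dark blue. Points on the dotted line had no counts: COL4A1 was there in 5 of 6 libraries, and COL9A1, COL5A3 and COL1A2 in all 6, beside partner chains that were counted.

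Counts of partner chains were uneven in both groups. COL4A1, the usual partner of COL4A2 in the main basement membrane trimer, had 0 counts in each RUVBL1 siRNA library, against 2, 0 and 0 counts in the control siRNA libraries. A count of 0 allows up to 3 counts, or between 2.98 and 4.01 normalized counts in the RUVBL1 siRNA libraries and 2.28 and 2.74 in the control siRNA libraries at 0, counting error only. COL4A2 itself had 152, 205 and 197 counts after RUVBL1 siRNA, against 107, 197 and 151 after control siRNA. Only the 126 bases printed above lie between the RefSeq starts of the pair. In GENCODE 29 the spans of COL4A1 and COL4A2 overlap on opposite strands, with 0 shared exonic bases. COL4A6, a partner of COL4A5, was likewise far below it: the level of COL4A5 was 39.1 ± 4.94 times that of COL4A6 after RUVBL1 siRNA and 43.0 ± 6.16 times after control siRNA (SD, n = 3 each). COL4A3 and COL4A4, the other partners of COL4A5, had at most 16 counts in any library.
The same held outside type IV. COL6A3, which joins COL6A1 and COL6A2 in type VI collagen, had 0, 0 and 1 counts after RUVBL1 siRNA, against 3, 6 and 1 after control siRNA. COL9A1, the partner of COL9A2 and COL9A3, was at 0 in all 6 libraries. COL5A1, the partner of COL5A2, had between 4 and 7 counts after RUVBL1 siRNA and between 3 and 11 after control siRNA.

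Across all genes, 6755 of 16006 tested (42.2%) passed an edgeR adjusted p of 0.05, 19.1% higher and 23.1% lower after RUVBL1 siRNA, and the groups did not overlap for 52.6%. When library totals were the only scaling, 4981 genes were higher and 2297 lower. Of the 10 listed collagen genes, 9 passed the low-count filter, 4 of them were called higher and 3 lower, and the groups did not overlap for 8. Since the list was made with this comparison known, nothing is read from these counts, which were 4 and 3 also without the replicate 1 libraries. COL4A1, which the filter removed, and COL5A2, whose mean was under 50 normalized counts, are too low to judge.

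**Figure D2:**
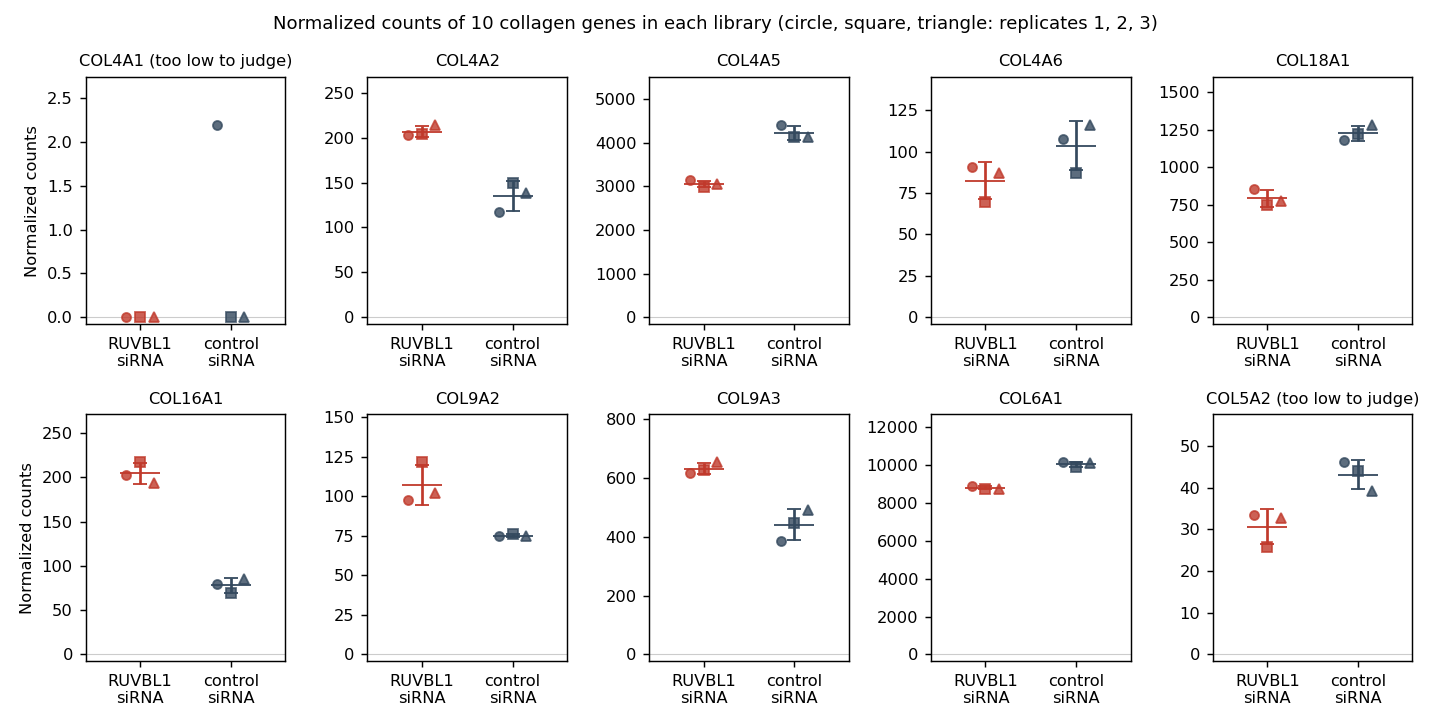
Normalized counts (linear axes, each with its own scale) of the 10 collagen genes in each library, RUVBL1 siRNA in red to the left of control siRNA in dark blue, with the mean and SD of 3 libraries for the 9 tested genes. The groups are apart in 8 panels, overlap for COL4A6, and are near 0 for COL4A1.

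Among the fibril-associated chains, COL16A1 (ENSG00000084636.13) rose. This chain of type XVI collagen is attached to fibrils and to cell-matrix contacts. It had 203, 217 and 193 normalized counts after RUVBL1 siRNA, against 80.0, 69.1 and 85.0 after control siRNA. The lowest RUVBL1 siRNA library was more than 100 normalized counts above the highest control siRNA library. The log2 fold change was 1.39 (SE 0.124), a 2.62-fold difference with a 95% interval of 2.17 to 3.16, and 0.712% of tested genes had a larger absolute log2 fold change. It rests on 152, 218 and 178 raw counts after RUVBL1 siRNA and 73, 91 and 93 after control siRNA. An antisense gene, AC114488.2, shares 117 exonic bases with COL16A1 in GENCODE 29 and had at most 2 counts in any library. The 4 genes whose log2 profile over the 6 libraries, centred on its mean, lay nearest to that of COL16A1 among 11477 genes were TMEM160 (Euclidean distance 0.235), the stress-response transcription factor gene DDIT3 (0.272), the retinaldehyde dehydrogenase gene ALDH1A3 (0.321) and the mTORC1 inhibitor gene DDIT4 (0.337). These distances share the 6 libraries and their scaling and are dominated by the difference between the groups.

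COL9A3 and COL9A2, chains of the type IX collagen known from cartilage, were also higher. COL9A3 (ENSG00000092758.11) had 617, 625 and 652 normalized counts after RUVBL1 siRNA, against 385, 446 and 491 after control siRNA. The groups were apart, with a wider spread among the control siRNA libraries. Its log2 fold change was 0.52 (SE 0.0798), a 1.43-fold difference (95% interval 1.27 to 1.62). COL9A2 (ENSG00000049089.9) had 97.5, 121 and 102 normalized counts after RUVBL1 siRNA, against 74.5, 75.9 and 74.9 after control siRNA. The control siRNA libraries were nearly equal, and the second RUVBL1 siRNA library was the highest. Its log2 fold change was 0.51 (SE 0.144), a 1.42-fold difference (95% interval 1.15 to 1.77), and without RUVBL1 siRNA replicate 2 it was 0.41 and lost its call. The pair moved by a like amount: the level of COL9A3 was 6.83 ± 0.795 times that of COL9A2 after RUVBL1 siRNA and 6.72 ± 0.795 times after control siRNA (SD, n = 3 each). COL9A3 shares 45 exonic bases with TCFL5 on the opposite strand. TCFL5 had 306, 380 and 347 raw counts after RUVBL1 siRNA and 387, 615 and 472 after control siRNA. Each RUVBL1 siRNA library had a smaller total than the control siRNA library of the same number, so these unscaled counts overstate any fall.

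The basement membrane chains did not move together. COL4A2 (ENSG00000134871.13) had 203, 204 and 214 normalized counts after RUVBL1 siRNA, against 117, 150 and 138 after control siRNA. All 3 RUVBL1 siRNA libraries were above the highest control siRNA library, and the log2 fold change was 0.62 (SE 0.116), a 1.53-fold difference (95% interval 1.29 to 1.83). COL4A5 (ENSG00000188153.8), a chain of the type IV network that is mutated in Alport syndrome, went the other way. It had 3138, 2994 and 3054 normalized counts after RUVBL1 siRNA, against 4405, 4137 and 4126 after control siRNA. The groups were far apart relative to their spread, and COL4A5 was at 72.5% of the control siRNA mean (log2 fold change -0.46, SE 0.031). COL4A6 (ENSG00000197565.11) had 90.8, 69.6 and 86.9 normalized counts after RUVBL1 siRNA, against 107, 87.3 and 116 after control siRNA. These groups overlapped, although each RUVBL1 siRNA library was below the control siRNA library of the same number, and COL4A6 was not called with or without the replicate block. Its log2 fold change was -0.33 (SE 0.163), and the 95% interval of the fold, 0.622 to 1.02, holds both the fold of COL4A5 and no change.

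COL18A1 (ENSG00000182871.10) had the largest fall on the list. It had 855, 747 and 776 normalized counts after RUVBL1 siRNA, against 1182, 1221 and 1282 after control siRNA. The groups were apart, and COL18A1 was at 64.5% of the control siRNA mean (log2 fold change -0.63, SE 0.052, 95% interval of the fold 0.596 to 0.697). RefSeq lists 2 starts for this gene, which the gene-level counts do not separate. Its value carries an uncertainty of counting: SLC19A1, the reduced folate carrier gene, shares 1401 exonic bases with it on the opposite strand, the strand setting is not given in the sources used here, and the counts of both genes hold decimals. SLC19A1 had 488, 627 and 597 raw counts after RUVBL1 siRNA and 815, 1191 and 1047 after control siRNA. As for TCFL5 above, these counts are not scaled for the smaller totals of the RUVBL1 siRNA libraries and overstate any fall. The part of these shared bases in the COL18A1 result was not tested.

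COL6A1 (ENSG00000142156.10), the most abundant chain, had the smallest fold change on the list. It had 8895, 8763 and 8752 normalized counts after RUVBL1 siRNA, against 10139, 9908 and 10088 after control siRNA. The groups did not overlap, and COL6A1 was at 87.6% of the control siRNA mean (log2 fold change -0.19, SE 0.0177). When library totals were the only scaling, its log2 fold change was -0.09. Its partner COL6A2, outside the list, fell by 0.31 on the log2 scale (SE 0.0314, edgeR adjusted p = 5.51e-06), with 2449 ± 69.2 normalized counts after RUVBL1 siRNA and 3046 ± 72.9 after control siRNA (SD, n = 3 each). The level of COL6A1 was accordingly 2.94 ± 0.0655 times that of COL6A2 after RUVBL1 siRNA and 2.69 ± 0.0559 times after control siRNA, with all 3 RUVBL1 siRNA ratios above all 3 control siRNA ratios. COL5A2 (ENSG00000204262.7), a fibrillar chain, had only 25, 26 and 30 raw counts after RUVBL1 siRNA and 42, 58 and 43 after control siRNA. Its normalized counts were 33.4, 25.8 and 32.6 after RUVBL1 siRNA, against 46.0, 44.0 and 39.3 after control siRNA. The groups did not overlap, but the log2 fold change of -0.49 had an SE of 0.233 and a 95% interval of the fold of 0.499 to 1.01, so that neither a fall of that size nor its absence could be resolved at this depth.

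**Figure D3:**
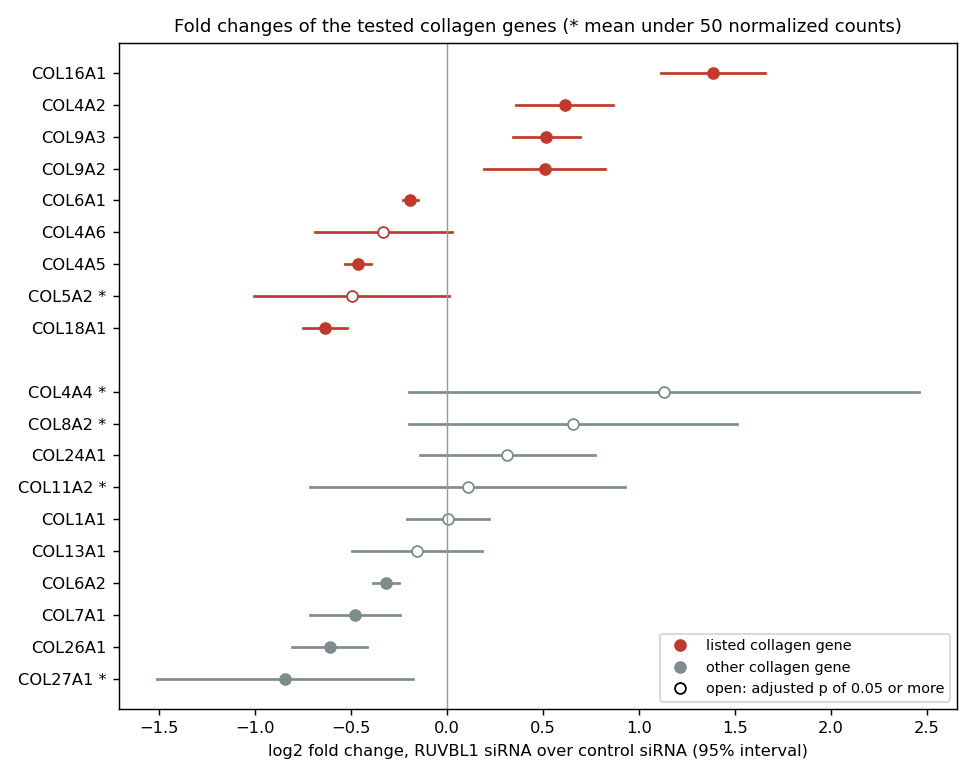
Log2 fold changes of RUVBL1 siRNA over control siRNA with 95% intervals for the 9 tested listed collagen genes (red, above) and the 10 other tested collagen genes (grey, below), filled where the edgeR adjusted p was under 0.05. COL16A1 lies at 1.39, 4 listed genes are filled to the right of 0 and 3 to the left, and the 4 filled other genes all lie to the left.

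Of the 34 collagen genes outside the list, 7 were at 0 in every library and 10 passed the low-count filter. Among these 10, edgeR called 4 lower and 0 higher, beside 23.1% lower and 19.1% higher over all tested genes, with 4 lower and 0 higher at an unadjusted edgeR p under 0.05 and 3 lower and 0 higher with DESeq2. Besides COL6A2, COL26A1 fell by 0.61 (SE 0.0903, edgeR adjusted p = 0.000148), with 195 ± 3.11 normalized counts after RUVBL1 siRNA and 298 ± 22.9 after control siRNA. COL7A1, the anchoring fibril chain, fell by 0.48 (SE 0.107, edgeR adjusted p = 0.00316). COL27A1, the other gene called, is too low to judge: its log2 fold change of -0.84 (SE 0.305, edgeR adjusted p = 0.043) rests on a mean of only 19.1 ± 5.39 normalized counts after RUVBL1 siRNA and 34.2 ± 4.33 after control siRNA, and the call was lost without RUVBL1 siRNA replicate 2 or 3 or without any 1 control siRNA library (edgeR adjusted p between 0.0643 and 0.149), when library totals were the only scaling (0.0668) and with DESeq2 (0.111). COL1A1, the chain of type I collagen whose partner COL1A2 was at 0, had 238 ± 19.2 normalized counts after RUVBL1 siRNA and 237 ± 14.6 after control siRNA (SD, n = 3 each). COL24A1 and COL13A1 did not pass either, with log2 fold changes of 0.31 (SE 0.209) and -0.15 (SE 0.155). COL4A4, COL8A2 and COL11A2, with log2 fold changes of 1.13 (SE 0.609), 0.66 (SE 0.391) and 0.11 (SE 0.375), were also under 50 normalized counts and too low to judge. With the replicate number as a block, COL4A4 was called higher (log2 fold change 1.19, edgeR adjusted p = 0.0345). The median log2 fold change of the 10 genes was -0.07, beside 0.01 over all tested genes.

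Many genes that fold, modify, process and export collagen were lower, while edgeR called no crosslinking gene in either direction. Of 34 genes on the combined list, 27 were tested, 19 fell, 1 rose and 7 did not pass the threshold (2 rose when library totals were the only scaling), beside 23.1% lower and 19.1% higher over all tested genes. DESeq2 called 17 lower and 1 higher, and with libraries left out 17 or 18 were lower. This list, the other collagen genes and the lists that follow were written with earlier results of these data known, so their counts are descriptions. The 19 genes called lower by edgeR include P3H2 and ADAMTS14, which are under 50 normalized counts and too low to judge. Where 3 libraries had to reach 50 counts, 17 fell. The crosslinking genes LOX, LOXL1 and LOXL3 are also too low to judge, and LOXL2, LOXL4 and PXDN did not pass the low-count filter. The median log2 fold change of the 27 was -0.41. The largest falls among those with a mean of at least 50 normalized counts follow. P4HA2, a catalytic subunit of the prolyl hydroxylase that stabilises the triple helix, fell by 0.61 on the log2 scale (SE 0.0767, edgeR adjusted p = 3.75e-05), with 267 ± 14.6 normalized counts after RUVBL1 siRNA and 408 ± 20.6 after control siRNA. MIA3, which encodes TANGO1, the receptor that loads bulky collagens for export from the endoplasmic reticulum, also fell by 0.61 (SE 0.0193, edgeR adjusted p = 3.74e-10), with 13974 ± 227 normalized counts after RUVBL1 siRNA and 21361 ± 102 after control siRNA. TLL2, a tolloid-like protease, fell by 0.59, and PLOD3, a lysyl hydroxylase that also adds sugars to collagen, fell by 0.57. The single gene called higher was MIA2, a partner of TANGO1 at the export sites, with a log2 fold change of 0.29 (SE 0.0357, edgeR adjusted p = 3.55e-05). It had 1514 ± 40.8 normalized counts after RUVBL1 siRNA and 1242 ± 39.2 after control siRNA (SD, n = 3 each).

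The called genes among receptors, basement membrane partners and proteases were lower. However, 3 of the 8 tested receptor and partner genes and 7 of the 11 tested proteases and inhibitors were not called. Of 20 receptor and basement membrane genes, 8 were tested, 5 fell and 0 rose, beside 23.1% lower and 19.1% higher over all tested genes. The counts were 5 and 0 also at an unadjusted edgeR p under 0.05 and with DESeq2, and the median log2 fold change of the 8 was -0.28. The perlecan gene HSPG2, the core of a heparan sulphate proteoglycan of basement membranes, fell by 0.72 (SE 0.064, edgeR adjusted p = 1.91e-06). DDR1, a receptor tyrosine kinase that binds collagen, fell by 0.71 (SE 0.0262, edgeR adjusted p = 4.08e-09), with 6276 ± 220 normalized counts after RUVBL1 siRNA and 10291 ± 226 after control siRNA. ITGB1, the beta subunit of the collagen-binding integrins, fell by 0.44, the agrin gene AGRN by 0.32 and ITGA2, an alpha subunit of a collagen-binding integrin that is named because it completes the 5, by 0.25. The ITGA2 call was lost when library totals were the only scaling and without control siRNA replicate 2 or 3, each of which left 4 genes called. Of 24 matrix proteases and inhibitors, 11 were tested, 4 fell and 0 rose, beside the same 23.1% and 19.1%. There were 5 lower and 0 higher at an unadjusted edgeR p under 0.05, 5 lower and 0 higher with the replicate block, and 4 lower and 0 higher with DESeq2, and the median log2 fold change of the 11 was -0.19. The membrane-type metalloprotease genes MMP15 and MMP16 fell by 0.51 and 0.19, and the lysosomal cathepsin genes CTSL and CTSB by 0.49 and 0.36. When library totals were the only scaling, the log2 fold change of MMP16 was -0.09. The metalloprotease inhibitor gene TIMP2 had a log2 fold change of -0.02 (SE 0.0333) and is named after its value was seen.

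**Figure D4:**
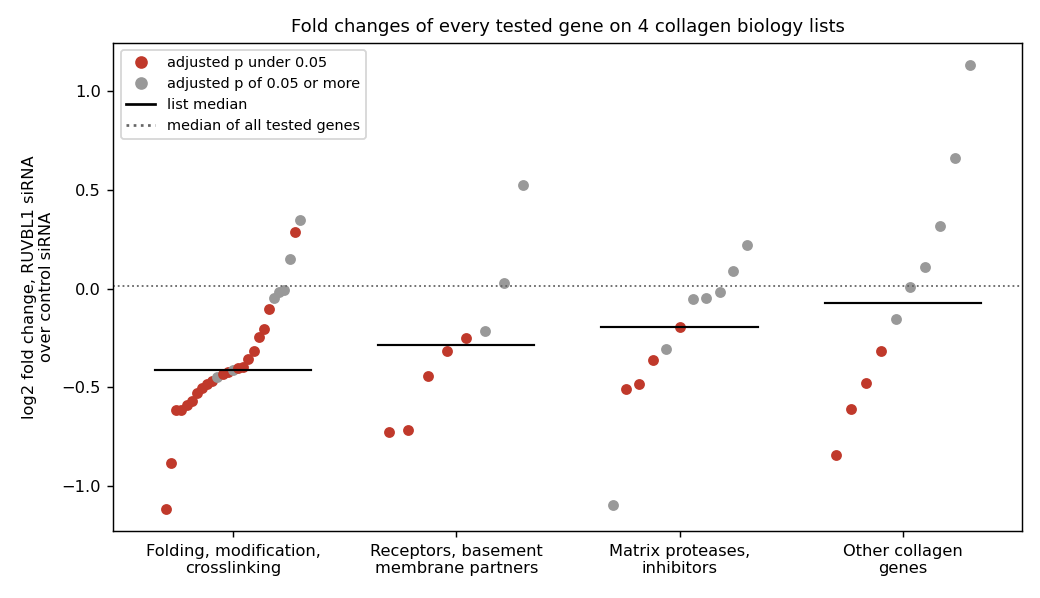
Log2 fold changes of RUVBL1 siRNA over control siRNA for every tested gene on 4 lists, in order of value within each list, in red where the edgeR adjusted p was under 0.05, with the list median as a line and the median of all tested genes (0.01) dotted. The medians are -0.41, -0.28, -0.19 and -0.07 from left to right, and 1 red point lies above 0.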

How the data were processed

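The labels gave each library's group and replicate number. Each of the 6 deposited files holds unscaled estimated counts for every gene. The submitters' processing notes name Bowtie 0.12.2 beside mm8 and mm9, mouse builds that conflict with the human Ensembl identifiers of the files. Counter, annotation and strand setting: not given in the sources used here. Identifiers were matched to symbols by stable identifier (51996 of 57820 genes), and all 44 collagen genes matched. The rounded counts went into edgeR 4.0.16 under R 4.3.3 (genes kept by filterByExpr, TMM factors, two-sided robust quasi-likelihood test on group alone, Benjamini-Hochberg adjustment over 16006 genes, threshold 0.05), checked on simulated data. The simulation left out genes at 0 in both replicate 1 libraries and drew the libraries independently, with no replicate effect. It therefore does not cover the difference of the replicate 1 libraries from the rest. Counts per library limit the precision of the low genes. The SE is the log2 fold change divided by the square root of F.

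Genes named were the 10 collagen genes, RUVBL1, every other tested collagen gene and, from each further list, up to 4 with the largest rise and 4 with the largest fall past the threshold with a mean of at least 50 normalized counts. Genes at a mean under 50, or removed by the filter, are called too low to judge. For the profiles nearest to COL16A1, genes needed a mean of at least 100, and a prior count of 2 was added. The members and lists were chosen with earlier results of these data known. Same-numbered libraries of the 2 groups had deviations from the group means that correlated at 0.939, 0.819 and 0.823 across genes, all over 0.1, and the replicate block was therefore run; the labels state no pairing. Libraries 2 and 3 also correlated across numbers (0.807 and 0.817), so that the values set replicate 1 apart from the rest and do not pair 2 and 3 by number. Alternatives were DESeq2 1.42.0, DESeq2 size factors, library totals alone, other filters, the replicate block and libraries left out.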

Additional observations from a re-analysis of the deposited data

How the results depend on the processing

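In each of the 13 alternatives, the 7 called members kept their direction, and COL9A2 without RUVBL1 siRNA replicate 2 was the exception to their calls (log2 fold change 0.41). COL16A1 had log2 fold changes between 1.30 and 1.49. The replicate block left 4 members higher and 3 lower, called 1 other collagen gene higher (COL4A4), and changed no other call of a named gene. When library totals were the only scaling, 4981 called genes were higher and 2297 lower (68.4% higher, beside 45.3%), 2 folding and modification genes rose, and the median log2 fold change over tested genes was 0.11, beside 0.01. With libraries left out, between 2450 and 3435 genes were higher and between 3261 and 3970 lower, and 3 or 4 members were higher and 3 lower. COL1A1 changed sign without a low-count filter (-0.013) and with libraries left out (between -0.068 and 0.071), and COL11A2 with libraries left out (between -0.33 and 0.46); neither passed the threshold in any alternative. The cause was not tested. Depth limits COL4A1, COL5A2 and the other genes under 50 normalized counts.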
